A study of Caenorhabditis elegans with 6 samples.

Results

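The ferritin genes ftn-1 and ftn-2 and the metallothionein genes mtl-1 and mtl-2 of Caenorhabditis elegans were followed in larvae held at the first larval stage without food. The genes were chosen by name, with earlier results of these data known, and all 4 were found among the 45519 genes of the deposited table. They were among the 16794 genes that averaged 1 FPKM or more and were tested. RNA of whole larvae was sequenced from 3 libraries of the strain linc-133(aqz 3), which carries the allele aqz 3 of the long intervening noncoding RNA gene linc-133, and from 3 libraries of the wild-type strain N2. Eggs of both strains hatched in M9 buffer, which holds no food, and stayed there for 3 days at 20 °C. The labels name 1 mutant allele without describing its lesion. They do not say how the replicates were raised. The tests therefore compare these libraries, whose spread could be technical only.

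Ferritin is a hollow shell of protein subunits that oxidises iron and stores it in a form that does no harm. In C. elegans ftn-1 is made mainly in the intestine, while ftn-2 is the more widely and strongly expressed gene. The worm ferritin mRNAs lack the iron-responsive element that controls ferritin translation in mammals. Iron acts on their transcription instead: the intestinal GATA factor ELT-2 activates ftn-1, and the hypoxia-inducible factor HIF-1 represses both genes when iron is scarce. Metallothioneins are small, cysteine-rich proteins that bind zinc, copper and cadmium. In C. elegans mtl-1 is made constitutively in the posterior bulb of the pharynx, and cadmium or heat induces both mtl-1 and mtl-2 in the intestine. Both ftn-1 and mtl-1 are also known targets of DAF-16, the FOXO factor that insulin signalling holds back.

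Levels are the authors' FPKM, that is, fragments scaled to a kilobase of gene and by a factor per library, so that they can be compared between genes. The reads behind each FPKM could be recovered and came to between 16108063 and 18556695 per library. The library total that the FPKM imply was 1.12, 1.002 and 0.900 times the recovered reads in mutant replicates 1, 2 and 3. In N2 replicates 1, 2 and 3 it was 1.03, 0.992 and 1.02 times. The FPKM thus hold a scaling between libraries beyond the recovered reads, whose origin is not given in the sources used here. linc-133 itself was near the detection limit, at 6, 2 and 2 reads in mutant replicates 1, 2 and 3 and at 9, 6 and 5 reads in N2 replicates 1, 2 and 3. Mutant replicate 3 stood apart in muscle transcripts: the summed level of 4 body wall muscle markers was 3398 FPKM there, against 1261 to 2027 FPKM in the other 5 libraries. The sum came mostly from unc-54 (1672 FPKM) and unc-15 (1346 FPKM), which encode proteins of the thick filament, while hlh-1, the gene of a muscle transcription factor, was lowest of the 6 libraries there, at 17.5 FPKM. The log2 changes of the 4 genes and the medians of the gene lists are therefore also given without it. The intestine, a main site of ftn-1 and of induced metallothionein expression, was represented by 9 markers, none of them at 0, whose sum was 2897 to 4608 FPKM in the mutant and 4066 to 4554 FPKM in N2. Most of that sum was the protease gene asp-1, at 1970 to 3197 FPKM in the mutant and 2989 to 3270 FPKM in N2. The acid phosphatase gene pho-1 lay the other way, at 12.1 ± 2.73 FPKM in the mutant and 7.04 ± 0.449 FPKM in N2 with no overlap (SD, n = 3 each; adjusted p = 0.225 in limma), and so did the peptide transporter gene pept-1, at 20.3 ± 7.92 FPKM in the mutant and 12.1 ± 2.12 FPKM in N2, with overlap. Markers of pharynx, epidermis, neurons and germline were also present and the 5 yolk protein genes of adults stayed under 1 FPKM. In whole larvae, fewer cells of a type and less RNA per cell cannot be told apart.

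All 4 genes averaged lower in linc-133(aqz 3) larvae than in N2 larvae. The difference was widest in ftn-1, at 0.547 times the N2 mean, followed by mtl-1 at 0.701 times, mtl-2 at 0.737 times and ftn-2 at 0.779 times. None passed an adjusted p of 0.05 in limma's test over all genes, in which 0 of 16794 genes passed (0%). Unadjusted p-values under 0.05 were found for ftn-1 and mtl-1, and it was in the same pair that no mutant library overlapped an N2 library. Over all tested genes, 6.48% had such a p with a lower mutant level, and 9.54% had every mutant library below every N2 library. A log2 change below 0 was found in 50.2% of tested genes. The filter was on FPKM and not on reads, so these shares include short loci, such as piRNA genes, that pass on few reads. With a filter at 10 recovered reads instead, 1 gene passed, and the adjusted p of ftn-1 was 0.124 in limma. The members were measured in the same 6 libraries, so their common sign is not 4 independent observations.

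**Figure D1:**
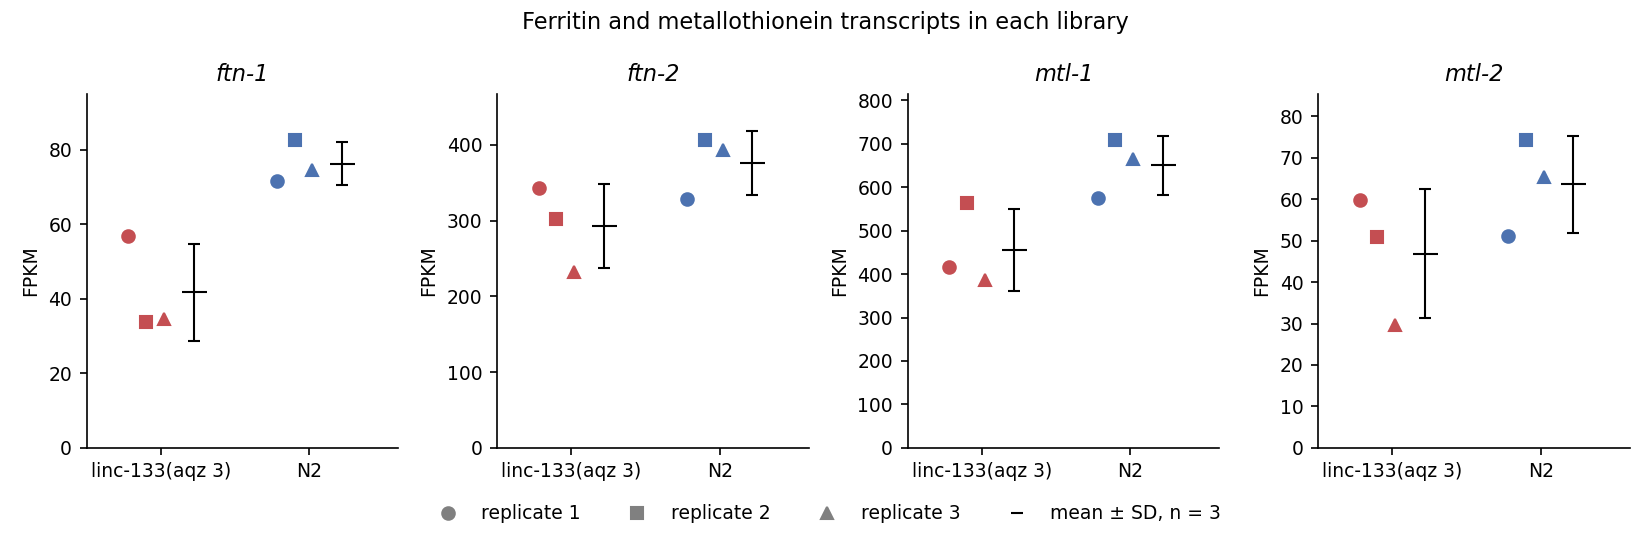
FPKM of ftn-1, ftn-2, mtl-1 and mtl-2 in each library, with linc-133(aqz 3) left of N2 and 1 symbol per replicate number; bars give the mean ± SD (n = 3). Every mutant library lies below every N2 library for ftn-1 and mtl-1, while the strains overlap for ftn-2 and mtl-2.

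The ferritins were examined first. ftn-1 (gene 179138) lies on the minus strand of chromosome V from 7546468 to 7547631 in the deposited table (WBcel235) and has 3 exons in the Ensembl annotation of the same build. It measured 56.8, 33.8 and 34.7 FPKM in mutant replicates 1, 2 and 3, against 71.7, 82.7 and 74.6 FPKM in N2 replicates 1, 2 and 3. Every mutant library was below every N2 library, and mutant replicate 1 was nearest to the wild type. The means were 41.8 ± 13.04 FPKM in the mutant and 76.3 ± 5.75 FPKM in N2 (SD, n = 3 each). On the scale of log2(FPKM + 1) the difference was -0.89 ± 0.217 (SE), with a 95% interval of -1.41 to -0.38. Its p in limma was 0.00496, rank 439 among all tested genes, and its adjusted p was 0.190. Only 4.65% of tested genes had a more negative change.

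ftn-1 rested on 356 to 770 reads per mutant library and 838 to 978 per N2 library, so the counting error of any 1 library was at most 5.30%. The spread between mutant libraries was larger than that, with a coefficient of variation of 31.2% in the mutant and 7.53% in N2. Without mutant replicate 1 the log2 difference was -1.13 (adjusted p = 0.0939 in limma), and without mutant replicate 3 it was -0.78. Of the 17 alternative settings, all gave a negative value, but some could not have given another sign. A change of filter or of variance model does not move the value. Leaving out a library cannot turn the sign where the strains do not overlap. ftn-1 passed in voom when each library was weighted by its quality (adjusted p = 0.0305). In that setting 2.08% of tested genes passed, and 0.464% passed with a lower mutant level. The adjusted p over all 17 ranged from 0.0305 to 0.541.

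ftn-2 (gene 171934) lies on the minus strand of chromosome I, from 3680172 to 3681873 in the deposited table, and was the more abundant ferritin transcript in every library. It measured 343, 302 and 233 FPKM in mutant replicates 1, 2 and 3, against 328, 407 and 393 FPKM in N2 replicates 1, 2 and 3. Mutant replicate 1 lay above N2 replicate 1, so the strains overlapped. The means were 293 ± 55.95 FPKM in the mutant and 376 ± 42.1 FPKM in N2 (SD, n = 3 each), a log2 difference of -0.37 ± 0.181 (SE; 95% interval -0.80 to 0.06; adjusted p = 0.421 in limma). Without mutant replicate 3, the lowest library, the log2 difference was -0.22. With 2679 to 5221 reads per mutant library and 4616 to 5392 per N2 library, counting added little to this spread.

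The ferritins could be set against each other within a library, where the scaling between libraries cancels. ftn-1 made up 14.2%, 10.1% and 12.97% of the summed ferritin FPKM in mutant replicates 1, 2 and 3, against 17.9%, 16.9% and 15.95% in N2 replicates 1, 2 and 3. Its share was thus lower in every mutant library than in any N2 library. The mean log2 ratio of ftn-1 to ftn-2 was -2.83 ± 0.293 in the mutant and -2.296 ± 0.101 in N2 (SD, n = 3 each). The difference of -0.54 had an exact permutation p of 0.1 (2-sided), the smallest that 3 libraries against 3 allow, so this design cannot reach 0.05. The summed ferritin level was 335 ± 66.4 FPKM in the mutant and 452 ± 46.9 FPKM in N2.

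**Figure D2:**
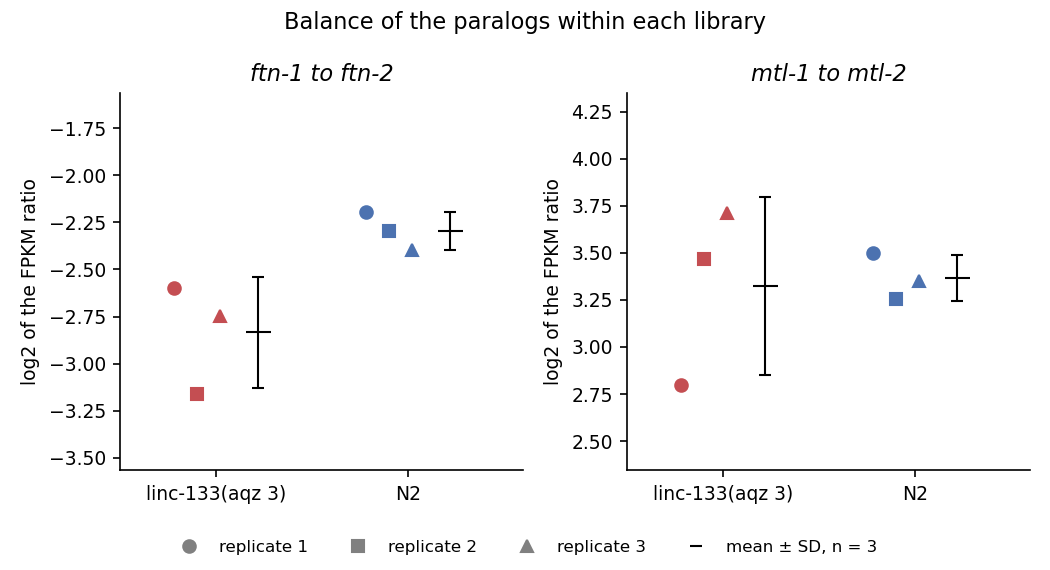
log2 of the FPKM ratio of ftn-1 to ftn-2 and of mtl-1 to mtl-2 within each library, with linc-133(aqz 3) left of N2; bars give the mean ± SD (n = 3), and neither axis starts at 0. The ferritin ratio averaged -2.83 in the mutant and -2.296 in N2 with no overlap, while the metallothionein ratios of the strains overlap.

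Of the metallothioneins, mtl-1 (gene 179060) lies on the minus strand of chromosome V from 6691371 to 6691863 and has 2 exons. It was the most abundant of the 4 genes in every library, with rank 193 by mean FPKM in the whole table. mtl-1 measured 416, 565 and 387 FPKM in mutant replicates 1, 2 and 3, against 576, 709 and 665 FPKM in N2 replicates 1, 2 and 3. The strains did not overlap, but the highest mutant library and the lowest N2 library were close. The means were 456 ± 95.3 FPKM in the mutant and 650.3 ± 67.8 FPKM in N2 (SD, n = 3 each). The log2 difference was -0.53 ± 0.178 (SE; 95% interval -0.95 to -0.10), with a p of 0.0224 and an adjusted p of 0.284 in limma. Without mutant replicate 2, the highest mutant library, it was -0.69, and without mutant replicate 3 it was -0.42. The summed level of 5 pharynx markers was 484 to 1018 FPKM in the mutant, highest in replicate 3, and 462 to 675 FPKM in N2. In mutant replicate 3 it came mostly from the muscle genes myo-2 (402 FPKM), tnt-4 (300 FPKM) and myo-1 (257 FPKM). The transcription factor gene ceh-22 was lowest of the mutant libraries there, at 5.49 FPKM. pha-4, at 52.8 FPKM there, lay between mutant replicates 1 (60.7 FPKM) and 2 (44.4 FPKM). The part of the pharynx in the result was not tested.

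mtl-2 (gene 179899) measured 59.9, 51.0 and 29.6 FPKM in mutant replicates 1, 2 and 3, against 51.0, 74.3 and 65.3 FPKM in N2 replicates 1, 2 and 3. Mutant replicate 3 was the lowest of the 6, and mutant replicate 1 lay above N2 replicate 1. The means were 46.8 ± 15.6 FPKM in the mutant and 63.5 ± 11.8 FPKM in N2 (SD, n = 3 each), with a log2 difference of -0.47 ± 0.282 (SE; 95% interval -1.15 to 0.20; adjusted p = 0.506 in limma). Without mutant replicate 3 the difference was -0.18. mtl-2 had the fewest reads of the 4 genes, 154 to 412 per mutant library and 325 to 446 per N2 library.

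The deposited row of mtl-2 also carries a doubt about its gene model. It spans chromosome V from 14002998 to 14018643 on the minus strand, 15646 bases, while its stated length is 334 bases. In the Ensembl annotation the gene has 2 exons of 347 bases in all, between 14018270 and 14018673. The deposited span overlaps 6 other genes and begins at the same base as the row of ddx-17, a DEAD-box helicase gene of the same strand. In the Ensembl annotation ddx-17 runs from 14008751 to 14012052, so the shared first base lies outside that gene. The base lies within the deposited spans of ric-7 and F58E10.8. ddx-17 was far more abundant than mtl-2, at 401, 599 and 693 FPKM in mutant replicates 1, 2 and 3. It measured 569, 575 and 601 FPKM in N2 replicates 1, 2 and 3. Which bases were counted for mtl-2 outside the Ensembl exons is not given in the sources used here. Part of its reads may therefore belong to ddx-17 or to another overlapping gene, which was not tested. Of the other overlapping rows, ric-7 averaged 12.5 ± 3.85 FPKM in the mutant and 9.80 ± 0.193 FPKM in N2, and end-3 averaged 1.21 ± 0.0900 and 0.986 ± 0.0890 FPKM in the same order (SD, n = 3 each). F58E10.8 and srh-308 stayed under 1 FPKM in every library. No other row overlapped ftn-1, ftn-2 or mtl-1. The ferritin rows also differed from the Ensembl annotation. The stated lengths were 658 bases for ftn-1 and 738 bases for ftn-2, against 606 and 651 exonic bases. The deposited span of ftn-2 was 1702 bases, against 748. The ferritin shares depend on the stated lengths, which were the same for every library.

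The balance of the metallothioneins did not separate the strains. The log2 ratio of mtl-1 to mtl-2 was 2.80, 3.47 and 3.71 in mutant replicates 1, 2 and 3, against 3.50, 3.25 and 3.35 in N2 replicates 1, 2 and 3. The mutant libraries lay on both sides of the N2 libraries and were more widely spread. The difference of the means was -0.04 (exact permutation p = 0.9, 2-sided), and its sign was positive without mutant replicate 1 (0.22) and without N2 replicate 1 (0.023). The summed metallothionein level was 503 ± 102 FPKM in the mutant and 714 ± 79.5 FPKM in N2 (SD, n = 3 each).

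**Figure D3:**
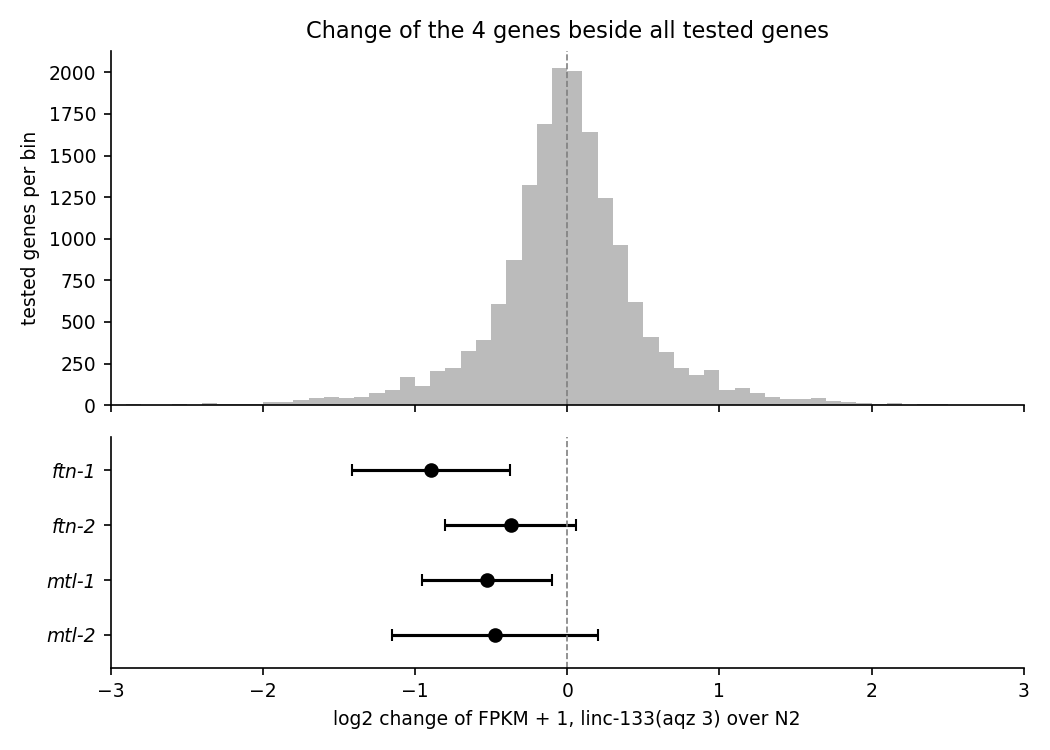
Upper panel, log2 change of FPKM + 1 (linc-133(aqz 3) over N2) of all 16794 tested genes in bins along the x axis, with values beyond 3 in either direction placed in the end bins; lower panel, the same quantity for the 4 genes with 95% intervals from limma. The intervals of ftn-1 and mtl-1 lie below 0, and those of ftn-2 and mtl-2 include 0.

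The order of the levels per length was the same at the top in each library, with mtl-1 above ftn-2 and both far above the other pair. mtl-1 and ftn-2 did not overlap within either strain. ftn-1 and mtl-2 were neighbours whose libraries overlapped within each strain: ftn-1 was above mtl-2 in all 3 N2 libraries and in mutant replicate 3, and below it in mutant replicates 1 and 2.

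The libraries within the mutant strain differed from each other in a gene-specific way. Relative to the N2 mean, mutant replicates 1, 2 and 3 reached 74.4%, 44.3% and 45.4% in ftn-1. They reached 91.4%, 80.4% and 61.9% in ftn-2 and 94.2%, 80.2% and 46.5% in mtl-2. For mtl-1 the values were 63.97%, 86.8% and 59.5%. Mutant replicate 3 was thus the lowest library in ftn-2, mtl-1 and mtl-2, and mutant replicate 2 the lowest in ftn-1. The small heat shock gene hsp-16.2, named after its values had been seen, measured 1101, 1767 and 3573 FPKM in mutant replicates 1, 2 and 3, against 473, 102 and 105 FPKM in N2 replicates 1, 2 and 3. It was highest in mutant replicate 3, and its part in these results was not tested.

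Genes of like pattern were sought as those whose deviations from their own mean, in log2(FPKM + 1) over the 6 libraries, differed least from a member's. The measure was the root mean square difference, and 8397 genes averaging 10 FPKM or more were compared. ftn-2 had the closest matches: C29G2.6 at a root mean square difference of 0.0279, F16H6.10 at 0.0439 and Y54H5A.2 at 0.05001. C29G2.6, for example, averaged 55.03 ± 11.04 FPKM in the mutant and 69.6 ± 8.21 FPKM in N2 (SD, n = 3 each). For mtl-1 they were F52E1.14 at 0.0506, Y47H10A.4 at 0.0553 and K12C11.7 at 0.0680, and for mtl-2 they were Y39B6A.5 at 0.0583, F15G9.1 at 0.0875 and F32A5.9 at 0.101. ftn-1 was most like mir-8194 at 0.0779, F54E2.1 at 0.115 and pals-31 at 0.118. The locus mir-8194 had 9 to 26 reads per library, so its pattern rests on little, while F54E2.1 had 335 to 981.

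Among the members themselves, the closest pair was ftn-2 and mtl-2, at a root mean square difference of 0.161. There ftn-2 ranked 32 among the genes most like mtl-2, but mtl-2 ranked 343 among those most like ftn-2. Seen from ftn-1, its paralog ftn-2 was the nearest member at 0.314 (rank 281), followed by mtl-2 at 0.331 (rank 376) and mtl-1 at 0.3875 (rank 780). Seen from ftn-2, ftn-1 ranked 3266. mtl-1 was nearer to ftn-2, at 0.202 (rank 360), than to its paralog mtl-2, at 0.277 (rank 1411). Many of the 8397 genes were thus nearer to a member than another member was.

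Other genes of metal handling, and known regulators of these genes, were then compared. The 8 lists held 92 genes, of which 89 were found in the table and 84 were tested. None passed limma's adjusted test, as for all genes. Unadjusted p-values under 0.05 were found for 11 genes with a higher and 4 with a lower mutant level, where the shares over all tested genes were 7.22% and 6.48%. The libraries did not overlap in 11 higher and 7 lower genes, against 10.5% and 9.54% of all tested genes. The median change over the lists was -0.01, beside 0.00 over all tested genes. Without mutant replicate 3 none of the 84 passed either, the median was 0.03 beside -0.01 over all tested genes, and the change of 7 genes had the other sign.

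**Figure D4:**
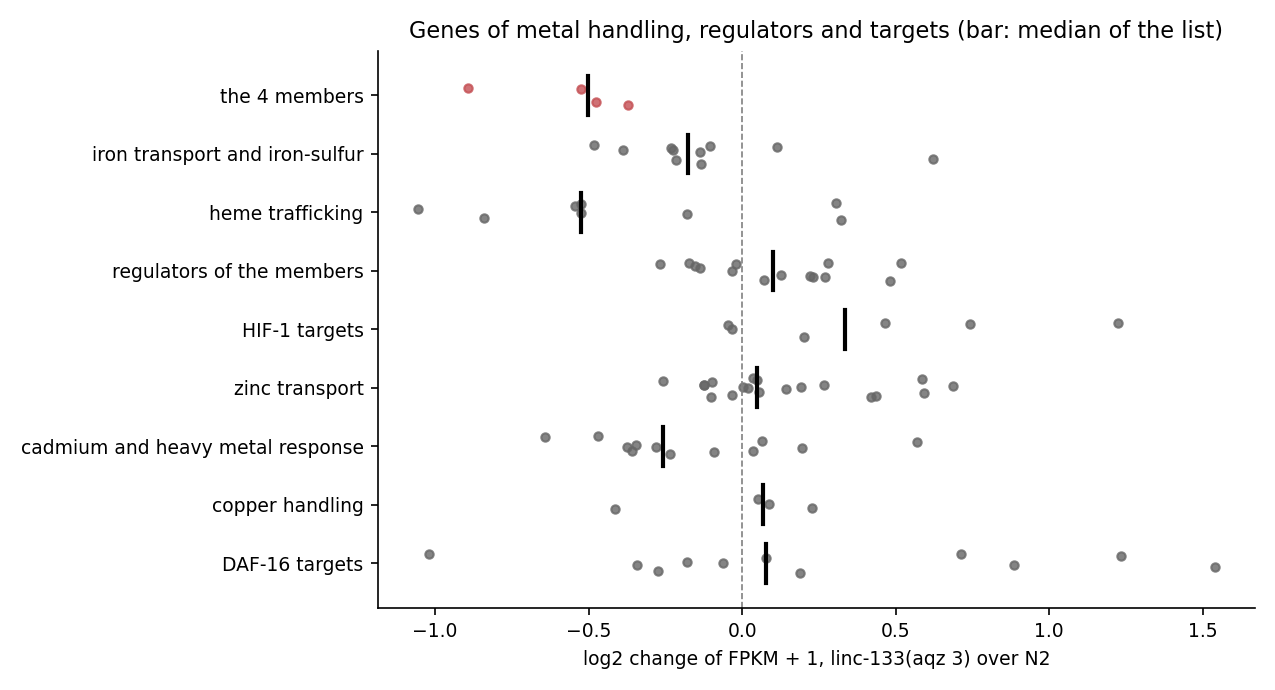
log2 change of FPKM + 1 (linc-133(aqz 3) over N2) of each tested gene of the 8 lists and of the 4 members, with 1 point per gene and a bar at the median of each list. The members all lie below 0, heme trafficking has a median of -0.52, and the list of HIF-1 targets has a median of 0.33.

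Genes that move iron or build it into cofactors mostly had small differences. Of 10 tested, 8 had a negative change and 2 a positive one, with a median of -0.18 both with and without mutant replicate 3. The mitochondrial iron importer gene mfn-1 measured 99.4, 109.8 and 107 FPKM in mutant replicates 1, 2 and 3, against 127, 139.5 and 149 FPKM in N2 replicates 1, 2 and 3. Every mutant library was below every N2 library (adjusted p = 0.262 in limma). The iron-sulfur scaffold gene iscu-1 lay the other way, with 169.7, 215 and 192 FPKM in mutant replicates 1, 2 and 3, against 138, 132 and 104.2 FPKM in N2 replicates 1, 2 and 3. Its strains did not overlap either (adjusted p = 0.214 in limma). abtm-1 averaged 7.68 ± 0.488 FPKM in the mutant and 9.07 ± 0.346 FPKM in N2 (SD, n = 3 each; adjusted p = 0.513 in limma). For abtm-1 too, every mutant library was below every N2 library. The list thus held 2 lower genes and 1 higher gene without overlap, where the shares over all tested genes were 9.54% and 10.5%.

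Heme trafficking genes had the most negative median of the 8 lists, -0.52 over 8 tested genes, 6 of them below 0. Without mutant replicate 3 the median was -0.32. The median over all libraries fell between hrg-9 (-0.525) and hrg-7 (-0.524). hrg-7 measured 7.27, 15.4 and 11.3 FPKM in mutant replicates 1, 2 and 3, against 11.3, 10.9 and 32.9 FPKM in N2 replicates 1, 2 and 3. Its N2 replicate 3 alone was high. hrg-9 and hrg-3 were low, at 2.27 ± 0.982 and 2.77 ± 1.98 FPKM in the mutant and 3.57 ± 0.325 and 3.90 ± 0.926 FPKM in N2 (SD, n = 3 each). hrg-2, a gene induced when heme is scarce, measured 4.64, 4.64 and 2.297 FPKM in mutant replicates 1, 2 and 3, against 6.61, 7.98 and 12.8 FPKM in N2 replicates 1, 2 and 3. Every mutant library was below every N2 library (adjusted p = 0.248 in limma). The heme transporter gene hrg-1 measured 17.6, 23.3 and 17.3 FPKM in mutant replicates 1, 2 and 3, against 22.6, 27.1 and 70.7 FPKM in N2 replicates 1, 2 and 3. N2 replicate 3 alone was far above the rest, and the lowest N2 library lay below the highest mutant library. The heme exporter gene mrp-5 averaged 36.2 ± 7.68 FPKM in the mutant and 40.6 ± 0.728 FPKM in N2, with overlapping libraries. hrg-6 averaged 5.70 ± 0.606 FPKM in the mutant and 4.35 ± 0.329 FPKM in N2 (SD, n = 3 each), and every mutant library was above every N2 library (adjusted p = 0.417 in limma). hrg-2 and hrg-6 were the tested genes of the list without overlap, 1 in each direction.

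All 14 regulators were tested, 8 with a positive and 6 with a negative change. hif-1 averaged 161 ± 30.1 FPKM in the mutant and 136 ± 5.35 FPKM in N2 (SD, n = 3 each), with overlapping libraries. egl-9, whose prolyl hydroxylase marks HIF-1 for destruction, measured 21.8, 36.6 and 33.9 FPKM in mutant replicates 1, 2 and 3, against 20.7, 21.1 and 20.2 FPKM in N2 replicates 1, 2 and 3. The strains did not overlap, but mutant replicate 1 was close to the wild type (adjusted p = 0.337 in limma). The zinc finger factor gene pqm-1 averaged 90.9 ± 18.2 FPKM in the mutant and 64.4 ± 9.98 FPKM in N2, and its libraries overlapped. The GATA factor gene elt-2, which is also an intestinal marker, averaged 21.0 ± 4.39 FPKM in the mutant and 17.2 ± 2.98 FPKM in N2, with overlapping libraries. daf-16 measured 64.5, 60.2 and 104.9 FPKM in mutant replicates 1, 2 and 3, against 65.4, 63.4 and 61.9 FPKM in N2 replicates 1, 2 and 3. Mutant replicate 3 alone was high and the other libraries overlapped. The log2 change of daf-16 was 0.22 with that library and -0.03 without it. Negative changes were -0.27 in nhr-14, -0.17 in rhy-1, -0.15 in hsf-1 and -0.14 in skn-1. Those of daf-2 and elt-7 were -0.03 and -0.02, and all 6 genes had overlapping libraries. daf-2 measured 25.4, 38.0 and 95.3 FPKM in mutant replicates 1, 2 and 3, against 41.2, 46.6 and 51.9 FPKM in N2 replicates 1, 2 and 3. Without mutant replicate 3 its log2 change was -0.56, with no overlap (adjusted p = 0.262 in limma).

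Of 6 tested genes listed as HIF-1 targets, 4 had a positive and 2 a negative change, with a median of 0.33, or 0.45 without mutant replicate 3. phy-2, a subunit of the enzyme that hydroxylates collagen, measured 32.5, 38.0 and 39.7 FPKM in mutant replicates 1, 2 and 3, against 31.6, 17.7 and 17.7 FPKM in N2 replicates 1, 2 and 3. Its strains did not overlap, although mutant replicate 1 and N2 replicate 1 were close (adjusted p = 0.269 in limma). F22B5.4 averaged 43.9 ± 25.2 FPKM in the mutant and 16.7 ± 4.07 FPKM in N2, likewise with no overlap (adjusted p = 0.269 in limma). The cysteine synthase-like gene cysl-1, which was in the list but is not an established target, averaged 102 ± 14.5 FPKM in the mutant and 88.3 ± 8.33 FPKM in N2. Its relative cysl-2 averaged 63.9 ± 16.9 FPKM in the mutant and 44.9 ± 2.36 FPKM in N2 (SD, n = 3 each). The 2 genes with a negative change were nhr-57 and sqrd-1, and both had overlapping libraries. nhr-57 averaged 9.55 ± 0.958 FPKM in the mutant and 9.82 ± 1.39 FPKM in N2. sqrd-1 averaged 31.7 ± 7.82 and 32.5 ± 6.09 FPKM in the same order (SD, n = 3 each). gst-19 was listed at 0 in every library.

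The other metal genes included 19 tested zinc transporters, with a median change of 0.05, or 0.16 without mutant replicate 3. Among them toc-1 averaged 27.4 ± 0.840 FPKM in the mutant and 20.1 ± 1.65 FPKM in N2 (adjusted p = 0.224 in limma). The zinc importer family gene zipt-2.4 averaged 14.4 ± 0.585 FPKM in the mutant and 10.6 ± 1.49 FPKM in N2 (SD, n = 3 each). In both genes every mutant library was above every N2 library. The same held for zipt-1, at 23.7 ± 2.97 FPKM in the mutant and 19.5 ± 2.03 FPKM in N2. These 3 were the genes of the list without overlap, where 10.5% of all tested genes were higher without overlap. zipt-7.2, the most abundant gene of the list, averaged 69.5 ± 14.1 FPKM in the mutant and 73.8 ± 3.72 FPKM in N2, with overlapping libraries, and its log2 change was -0.10 with mutant replicate 3 and 0.02 without it. zipt-15 averaged 38.5 ± 16.23 FPKM in the mutant and 23.5 ± 2.204 FPKM in N2, likewise with overlap.

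The list of cadmium and heavy metal response held 12 tested genes, 8 of them below 0, with a median of -0.26, or -0.15 without mutant replicate 3. The libraries did not overlap in 3 lower genes, pcs-1, numr-1 and numr-2, and in 1 higher gene, aip-1, where the shares over all tested genes were 9.54% and 10.5%. numr-1 and numr-2 were near the filter of 1 FPKM. numr-1 averaged 1.93 ± 0.558 FPKM in the mutant and 3.04 ± 0.677 FPKM in N2 (adjusted p = 0.444 in limma). numr-2 averaged 1.25 ± 0.664 and 2.42 ± 0.413 FPKM in the same order (SD, n = 3 each; adjusted p = 0.417 in limma). aip-1, an arsenite-induced gene of the proteasome system, measured 134, 126 and 161 FPKM in mutant replicates 1, 2 and 3, against 90.5, 95.6 and 95.4 FPKM in N2 replicates 1, 2 and 3. Every mutant library was above every N2 library (adjusted p = 0.184 in limma). aip-1 lies within the deposited span of mtl-2, on the opposite strand. The phytochelatin synthase gene pcs-1, whose product makes metal-binding peptides, averaged 11.3 ± 1.35 FPKM in the mutant and 14.7 ± 1.04 FPKM in N2, and every mutant library was below every N2 library (adjusted p = 0.334 in limma). kreg-1 averaged 71.3 ± 26.6 FPKM in the mutant and 89.0 ± 24.6 FPKM in N2, with overlapping libraries.

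None of the 4 copper genes had an unadjusted p under 0.05 in limma. The copper pump gene cua-1 averaged 20.0 ± 2.46 FPKM in the mutant and 18.7 ± 0.851 FPKM in N2. The copper chaperone gene cuc-1 averaged 87.8 ± 22.6 FPKM in the mutant and 73.0 ± 4.84 FPKM in N2 (SD, n = 3 each). cutc-1 averaged 19.7 ± 3.62 FPKM in the mutant and 19.01 ± 3.76 FPKM in N2. The copper uptake gene chca-1 averaged 6.59 ± 1.32 FPKM in the mutant and 9.48 ± 3.71 FPKM in N2. All 4 had overlapping libraries.

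Among DAF-16 targets other than ftn-1 and mtl-1, the changes went both ways. Of 11 tested, 6 had a positive and 5 a negative change, with a median of 0.08, or 0.15 without mutant replicate 3. The linker histone gene hil-1 measured 221, 268 and 251 FPKM in mutant replicates 1, 2 and 3, against 454, 520.2 and 526 FPKM in N2 replicates 1, 2 and 3. Every mutant library was below every N2 library (adjusted p = 0.121 in limma). The fatty acid desaturase gene fat-5 lay the other way, at 18.7, 40.0 and 26.3 FPKM in mutant replicates 1, 2 and 3, against 12.6, 11.1 and 9.29 FPKM in N2 replicates 1, 2 and 3 (adjusted p = 0.1803 in limma). The glyoxylate cycle gene icl-1 measured 342, 847 and 944 FPKM in mutant replicates 1, 2 and 3, against 278, 310.3 and 128 FPKM in N2 replicates 1, 2 and 3, again with no overlap. dod-6 averaged 522 ± 42.6 FPKM in the mutant and 503 ± 124 FPKM in N2 (SD, n = 3 each).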

How the data were processed

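Expression was measured by RNA sequencing of whole larvae in 6 libraries, grouped by the sample titles. Per the labels' protocols, libraries were made from 1 µg of total RNA with a TruSeq RNA kit that leaves the strand unmarked. STAR 2.5.2b, Bowtie 0.12.2 and StringTie, with the build WBcel235, are listed without roles per the submitters' processing notes. How reads were counted is not given in the sources used here. FPKM per gene and library were deposited by the authors, with gene lengths in bases. Multiplying FPKM by length gave multiples of a fixed step in each library for 100% of 131954 values above 0, within 0.01 of a whole read, which recovered the reads. Counting errors are those of reads, not molecules.

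Genes averaging 1 FPKM or more over the libraries were tested on log2(FPKM + 1) in limma 3.58.1 (R 4.3.3), with trend and robust moderation and Benjamini-Hochberg adjustment over all of them. Fold changes on this scale understate changes of low genes. Ratios of paralogs were compared by exact permutation. Python 3.11.15 made the summaries.

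The members and lists were chosen with earlier results of these data known. In each list the 2 genes of highest mean FPKM and the 2 of lowest p were named, or all where 4 or fewer were tested, besides genes overlapping a member and the 3 genes of most like pattern. elt-2, elt-7, daf-2, daf-16, rhy-1, skn-1, hsf-1, nhr-14, nhr-57, sqrd-1 and gst-19 were named in addition. So were hrg-3, hrg-7, hrg-9, abtm-1, zipt-1, numr-1, numr-2, hsp-16.2 and some of the tissue markers. Of 92 list genes, fpn-1.3, cdr-5 and dod-8 were not matched, and hrg-9 and chca-1 were matched by gene ID through RefSeq. The tests on recovered reads were added after the data were seen.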

Additional observations from a re-analysis of the deposited data

How the results depend on the processing

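The log2 changes of the 4 genes were negative in all 17 alternatives each, but not every alternative could change the sign. The filters, the moderation and the replicate block can change p-values but not the log2 change itself. For ftn-1 and mtl-1, whose libraries did not overlap, leaving out a library could not turn the sign either. The settings were pseudocounts of 0.1 and 5, no filter or one at 5 FPKM, quantile scaling, limma with neither trend nor robust moderation, a replicate block and leaving out each library, besides voom on recovered reads with and without quality weights, a filter at 10 recovered reads and values without the authors' scaling, which were added after the data were seen. Without 1 library the change was -1.13 to -0.77 for ftn-1, -0.50 to -0.22 for ftn-2, -0.69 to -0.42 for mtl-1 and -0.68 to -0.18 for mtl-2, and adjusted p-values stayed above 0.05. ftn-1 passed in voom with quality weights (-0.97, adjusted p = 0.0305), which gave mutant replicates 3 and 1 the least weight (0.424 and 0.570); the cause was not tested. The count of genes past the threshold was 23 when limma used no trend and no robust moderation, 3 with voom on recovered reads, 349 with quality weights (78 lower), 1 with the filter at 10 recovered reads, and 0 to 0 without 1 library; at an unadjusted p under 0.05 limma found 2301. Of the list genes, 2 passed with quality weights (hil-1 and fat-5) and 0 to 0 without 1 library. The difference in the log2 ratio of ftn-1 to ftn-2 was -0.66 to -0.37 without 1 library. That of mtl-1 to mtl-2 was -0.23 to 0.22, positive without mutant replicate 1 (0.22) and without N2 replicate 1 (0.023).

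Same-numbered libraries of the strains did not deviate together: their deviations from the group means correlated across genes at 0.0162, -0.0344 and 0.0288, and mutant replicate 2 correlated best with N2 replicate 1 (0.0518). The numbers were not taken as pairs because the labels do not say that a number marks a shared culture. With 3 libraries per strain, these correlations cannot decide whether the libraries were paired. With the replicate block, 0 genes passed. The block is balanced, so it cannot move the log2 changes of ftn-1, ftn-2, mtl-1 and mtl-2 from -0.89, -0.37, -0.53 and -0.47. Their adjusted p-values with the block were 0.341, 0.502, 0.348 and 0.553 in limma.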
